A study of Mus musculus with 8 samples.

Results

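The transcripts of 10 receptor genes of selective autophagy and mitophagy were compared between cells sorted as esophageal basal cells with a high and a low content of autophagic vesicles. The genes were taken by name: Sqstm1, Nbr1, Optn, Calcoco1, Tax1bp1, Tollip and Wdfy3, whose proteins are soluble and of which some also act on mitochondria, and Bnip3, Bnip3l and Fundc1, whose proteins sit in the mitochondrial membrane. All 10 were found among the 55276 gene symbols of the count table, and all 10 had enough counts to be tested. The cells came from the esophageal epithelium of C57BL6 mice aged 14 to 15 weeks, 2 female and 2 male, for which the labels name no altered gene and no agent. Integrin beta-1 on the surface and exclusion of DAPI selected live cells, and the fluorescence of Cyto-ID, a dye of autophagic vesicles, parted each suspension into Cyto-ID Low and Cyto-ID High. RNA of each fraction was sequenced in bulk, which gave 4 libraries per fraction, and the same-named libraries of both fractions were taken as coming from the same animal (Female1, Female2, Male1, Male2).

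In selective autophagy a receptor binds a marked cargo on one side and LC3 or GABARAP proteins of the growing autophagosome membrane on the other, so that the cargo is enclosed and brought to the lysosome. Most soluble receptors recognise ubiquitin chains, and they are degraded together with their cargo. Other mitophagy receptors are instead anchored in the outer mitochondrial membrane and mark the whole organelle. In stratified epithelia the removal of organelles accompanies the late steps of keratinocyte differentiation. A transcript level says nothing of how much receptor protein is made or degraded.

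The depth was similar in all libraries, at 26285150 to 29301054 counts. The fractions differed widely, since 48.7% of the 17344 genes tested passed (edgeR's quasi-likelihood test with sex as a covariate, Benjamini-Hochberg adjusted p under 0.05), 23.4% higher and 25.3% lower in Cyto-ID High. All 12 basal keratinocyte markers were lower in Cyto-ID High, and their summed level was 22520 to 26890 CPM (CPM being counts relative to library size after TMM scaling, the trimmed-mean normalisation of edgeR) in Low and 2910 to 4630 in High. Of 12 suprabasal markers 11 were higher, with sums of 8695 to 26170 CPM in Low and 147400 to 247600 in High. The cells are labelled as squamous and the sort took Integrin beta-1 positive cells, yet suprabasal genes were the higher sum in every High library. They were also the higher sum in the Low library of Male2, at 26170 CPM against 25860 for the basal genes. Itgb1, which encodes Integrin beta-1, was among the lower basal markers (log2 fold change −2.44, SE 0.21). The part of this shift between cell layers in the receptor results was not tested. In bulk RNA, fewer cells of a type and less RNA per cell cannot be told apart. The High library of Male2 stood apart in markers of other cell types, of which no list had all its genes at 0 in any library. Its 8 fibroblast genes summed to 41.2 CPM (157 to 486 in the other High libraries, 325 to 517 in Low), its 8 leukocyte genes to 8.95, its 8 endothelial genes to 4.99 and its 10 muscle genes, of which 3 were at 0, to 5.09. In the other 3 High libraries the last 3 sums were 32.0 to 88.95, 14.98 to 42.5 and 23.4 to 69.4 CPM. Female2 stood apart in 11 gastric genes, which summed to 19.1 CPM in Low and 116 in High, against at most 0.772 and 1.44 in the other animals. Of 12 genes that tissue dissociation induces, Dnajb1 and Ier2 were higher, Jun and Atf3 lower and 8 did not pass, and their sums were 16300 to 20660 CPM in Low and 11800 to 25570 in High, with High above Low in Female2 and Male2 only. The number higher was 1 without the Low library of Female1, Male1 or Male2 or the High library of Female2 or Male2, and 3 without Male1 High.

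RefSeq promoter sequences (GRCm38.p6, where the submitters' processing notes name GRCm38) were found for 8 of the 10 genes, all but Bnip3l and Wdfy3. The 250 bases before the start are shown for Sqstm1 and Tollip, since both passed as higher, and for Bnip3, which did not pass. Capitals mark matches on either strand to 6 motifs: CACGTG (the E-box core bound by MiT/TFE factors), ACGTG and GCGTG (cores of the hypoxia element), TGACNNNGC (the antioxidant element bound by Nrf2), TGANTCA (AP-1) and TGTTTAC (forkhead factors). Each CACGTG also holds ACGTG.
Sqstm1: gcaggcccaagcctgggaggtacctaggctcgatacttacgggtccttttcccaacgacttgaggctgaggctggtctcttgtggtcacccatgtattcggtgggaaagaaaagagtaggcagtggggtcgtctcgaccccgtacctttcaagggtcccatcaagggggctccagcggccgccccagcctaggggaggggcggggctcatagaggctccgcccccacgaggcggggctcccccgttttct
Tollip: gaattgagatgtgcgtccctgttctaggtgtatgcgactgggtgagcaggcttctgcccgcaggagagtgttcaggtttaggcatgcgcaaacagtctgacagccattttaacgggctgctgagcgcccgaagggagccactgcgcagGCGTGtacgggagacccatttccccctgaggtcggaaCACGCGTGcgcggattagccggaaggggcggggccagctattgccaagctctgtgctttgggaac
Bnip3: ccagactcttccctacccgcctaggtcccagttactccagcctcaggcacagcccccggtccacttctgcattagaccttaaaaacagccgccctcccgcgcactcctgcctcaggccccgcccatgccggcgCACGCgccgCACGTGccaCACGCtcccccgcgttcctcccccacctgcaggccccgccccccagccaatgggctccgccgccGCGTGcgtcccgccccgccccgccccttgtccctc

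The Sqstm1 window, at chr11:50210821-50211070 on the minus strand, held no match to the 6 motifs. Fundc1, which passed as lower, had a window inside its annotated gene that also held no match and is not shown. The Tollip window, at chr7:141902462-141902711 on the minus strand, held GCGTG at positions −102, −65 and −62 from the start, and lies inside the Tollip gene as GENCODE M21 annotates it. The Bnip3 window, at chr7:138909507-138909756 on the minus strand, held CACGTG at position −108 and GCGTG at −117, −99 and −35. Among 32851 promoter windows of the same length, CACGTG was found in 6.0%, ACGTG in 16.6%, GCGTG in 28.2%, TGACNNNGC in 10.2%, TGANTCA in 6.7% and TGTTTAC in 3.2%. A match is a description of the letters and not a measured site.

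Of the 10 receptors 4 differed between the fractions, beside 48.7% of all genes. Wdfy3, Sqstm1 and Tollip were higher in Cyto-ID High, by 3.56-fold, 2.65-fold and 2.64-fold, and Fundc1 was lower, at 0.655 times its level in Low. The other 6, Nbr1, Optn, Calcoco1, Tax1bp1, Bnip3 and Bnip3l, did not pass. This fit did not use the pairing of libraries by animal. With each animal as a replicate block 5 receptors passed, with Calcoco1 in addition. The median log2 fold change of the 10 was 0.17, beside −0.09 for all genes tested. With 1 library left out it ran from 0.067 (without Male1 High) to 0.35 (without Male2 High), with 0.093 without Female1 Low, 0.11 without Female2 High and 0.29 without Male2 Low, and it was 0.45 without both libraries of Male2. The libraries of the fractions did not overlap in CPM for Sqstm1, Tollip, Wdfy3 and Tax1bp1, that is for 4 of 10, beside 48.6% of all genes. The difference had the same direction in all 4 animals for 6 of 10 receptors, beside 64.2% of all genes. These shares are near those of all genes and are no result about the receptors as a group. Scaling mattered: with total counts only, the median of all genes was −0.64 and that of the receptors −0.36, and 3 receptors were higher and 3 lower.

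**Figure D1:**
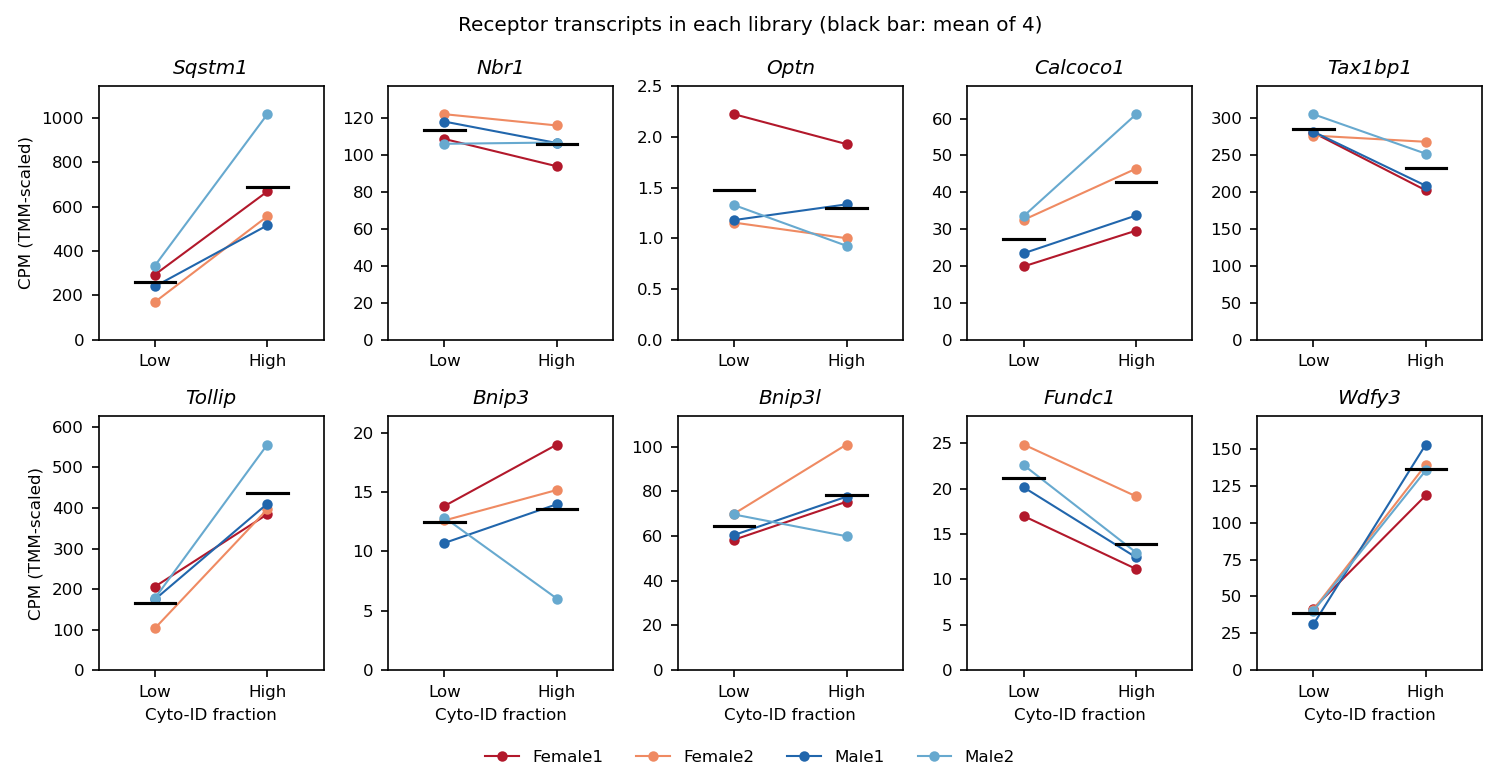
Level of each receptor transcript in each library, in TMM-scaled CPM from 0 on the vertical axis, for Cyto-ID Low and High on the horizontal axis. Points of the same animal are joined and black bars are means of 4. Sqstm1, Tollip and Wdfy3 are higher in High in all 4 animals, Fundc1 is lower in all 4, and Bnip3 and Bnip3l are higher in High in every animal but Male2.

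Sqstm1 encodes p62, the ubiquitin-binding receptor that gathers protein aggregates into droplets and also binds Keap1. The gene lies on chromosome 11 (GRCm38, 50199366 to 50210827, minus strand). Its level in Cyto-ID Low was 294, 170, 241 and 335 CPM (Female1, Female2, Male1, Male2), and in Cyto-ID High it was 669, 557, 517 and 1018. The highest Low library therefore lay below the lowest High library, and Male2 was the highest animal in both fractions. Its log2 fold change was 1.41 (SE 0.26, 95% interval 0.82 to 2.00, edgeR adjusted p 0.00156). Without the High library of Male2 it was 1.18 (edgeR adjusted p 0.00362). Exons of Mrnip, on the other strand, cover 17.3% of the exonic length of Sqstm1, but Mrnip had only 14 to 84 counts where Sqstm1 had 6197 to 19788.

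Nbr1 encodes a receptor with the same domain plan as p62, which binds p62 and acts in the clearance of aggregates and peroxisomes. It lies on chromosome 11 (101552149 to 101581951, plus strand). It was at 109, 122, 118 and 106 CPM in Low (Female1, Female2, Male1, Male2) and at 93.7, 116, 106 and 107 in High. The groups overlapped, with Female2 highest in both. The log2 fold change was −0.10 (SE 0.13, 95% interval −0.40 to 0.19, edgeR adjusted p 0.562) and did not pass. Without Female1 High it was −0.034, and without Female1 Low or Female2 High −0.16. With total counts only the Nbr1 value was −0.67 (edgeR adjusted p 0.00151), where the median of all genes was −0.64.

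The pair was also compared within each library, where scaling has no part. The 3 ratios tested here were chosen after the data were seen. Their p-values therefore describe how the libraries separate and are no independent test. The log2 ratio of Sqstm1 to Nbr1 counts was 1.15 ± 0.52 in Low and 2.66 ± 0.48 in High (SD, n = 4 each), with ranges of 0.48 to 1.66 and 2.27 to 3.26. The difference of 1.51 was positive in 4 of 4 animals. An exact two-sided permutation test over the 70 assignments of the 8 libraries gave p = 0.0286, the smallest it allows, and 0.0429 after adjustment over 3 ratios. Sign changes within the 4 animals cannot go below 0.125, which is what the exact paired permutation test gave. The lowest High ratio lay above the highest Low ratio.

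Wdfy3 encodes ALFY, a very large scaffold that links p62-bound aggregates to phosphoinositides and the conjugation machinery. It lies on chromosome 5 (101832956 to 102069921, minus strand). Its level in Low was 41.7, 40.9, 31.0 and 40.1 CPM (Female1, Female2, Male1, Male2), and in High it was 119, 139, 153 and 136. Every High library was above every Low library by a wide gap. Its log2 fold change was 1.83 (SE 0.15, 95% interval 1.49 to 2.18, edgeR adjusted p 2.01e-05). Ordered by p, it stood at place 425 of the 17344 genes. Without both libraries of Male2 it was 1.92 (edgeR adjusted p 0.000118).

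Tollip encodes an adaptor that binds ubiquitin through a CUE domain, acts in the clearance of aggregates and sorts endosomes, and also restrains Toll-like and interleukin-1 receptor signalling. The gene lies on chromosome 7 (141874813 to 141918507, minus strand). Low libraries held 206, 103, 174 and 177 CPM (Female1, Female2, Male1, Male2), and High libraries 385, 397, 411 and 557. The increase differed between animals, from 0.90 log2 CPM in Female1 to 1.94 in Female2. Over all libraries the log2 fold change was 1.40 (SE 0.22, 95% interval 0.90 to 1.90, edgeR adjusted p 0.000603). Without the High library of Male2, the highest, it was 1.29 (edgeR adjusted p 0.00145). For Tollip as for Sqstm1 (1.71 and 1.61 against 1.19 and 1.10), the differences in log2 CPM were larger in Female2 and Male2 than in Female1 and Male1. Those are the animals in which the dissociation genes summed higher in High, and also those in which the fibroblast sum was lower in High (367 and 157 CPM in Female2, 517 and 41.2 in Male2, against 470 and 486 in Female1 and 325 and 346 in Male1). The High libraries of Female2 and Male2 also had the lowest TMM scaling factors, 0.792 and 0.679, against 0.944 and 0.896 in Female1 and Male1. The part of the scaling, the dissociation genes or the fibroblast genes in these larger differences was not tested.

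Calcoco1 and Tax1bp1 belong to the family with an N-terminal SKICH domain, with Calcoco1 known as a receptor for endoplasmic reticulum and Golgi and Tax1bp1 as a receptor for ubiquitinated aggregates and ferritin clusters and a partner of A20 in NF-kB signalling. Calcoco1 (chromosome 15, 102706777 to 102722178, minus strand) was at 19.9, 32.5, 23.5 and 33.5 CPM in Low (Female1, Female2, Male1, Male2) and at 29.6, 46.4, 33.7 and 61.2 in High. Within each of the 4 animals High was above Low, by 0.51 to 0.87 log2 CPM, although the groups overlapped because the animals differed. The log2 fold change was 0.63 (SE 0.25, 95% interval 0.07 to 1.20, edgeR adjusted p 0.0617). A fit with each animal as a replicate block gave 0.62, which passed (edgeR adjusted p 0.00202), while with total counts only it was 0.03 (edgeR adjusted p 0.912). It also passed without Female1 High, Female2 Low or Male1 High (0.77 to 0.80, edgeR adjusted p 0.0306 to 0.0361), and was 0.42 without Male2 High (edgeR adjusted p 0.189).

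Tax1bp1 (chromosome 6, 52713729 to 52766780, plus strand) was lower in High in all 4 animals. It was at 280, 276, 281 and 305 CPM in Low (Female1, Female2, Male1, Male2) and at 202, 268, 208 and 251 in High. The groups did not overlap, but the gap between 268 and 276 CPM was narrow. The log2 fold change was −0.30 (SE 0.15, 95% interval −0.64 to 0.04, edgeR adjusted p 0.137), and it passed with total counts only (−0.87, edgeR adjusted p 0.000167) and with at least 10 counts demanded in every library (−0.32, edgeR adjusted p 0.0446). Within libraries the log2 ratio of Calcoco1 to Tax1bp1 counts was −3.42 ± 0.34 in Low and −2.49 ± 0.32 in High (SD, n = 4 each). The difference of 0.93 was positive in 4 of 4 animals (exact two-sided permutation test, p = 0.0286, adjusted 0.0429), and the exact paired permutation test gave 0.125, the smallest it allows. This ratio too was chosen after the data were seen, and the adjustment covers only the ratios tested here.

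Optn encodes optineurin, a ubiquitin-binding receptor of mitophagy and of bacteria that is phosphorylated by Tbk1. Its transcript was scarce, with 18 to 72 counts per library (chromosome 2, 5020642 to 5064051, minus strand). Its level was 2.22, 1.16, 1.18 and 1.33 CPM in Low (Female1, Female2, Male1, Male2) and 1.93, 1.00, 1.34 and 0.926 in High. The groups overlapped, with Female1 highest in both fractions, and the interval of the log2 fold change ran from −0.93 to 0.59 around −0.17 (SE 0.34, edgeR adjusted p 0.722).

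Among the membrane-anchored mitophagy receptors, Fundc1 lies on the X chromosome (17556564 to 17572325, minus strand) and encodes the receptor whose binding to LC3 is set by phosphorylation under hypoxia. Low libraries held 17.0, 24.9, 20.2 and 22.6 CPM (Female1, Female2, Male1, Male2) and High libraries 11.2, 19.2, 12.4 and 13.0. Every animal was lower in High, by 0.38 to 0.80 log2 CPM, but the groups overlapped because the High library of Female2 exceeded the Low library of Female1. The log2 fold change was −0.61 (SE 0.20, 95% interval −1.06 to −0.16, edgeR adjusted p 0.0303), and a fit with each animal as a replicate block gave −0.62 (edgeR adjusted p 0.00279). Its call was lost when the High library of Female1, Male1 or Male2 or the Low library of Female2, Male1 or Male2 was left out (−0.49 to −0.64, edgeR adjusted p 0.0549 to 0.0951). Without both libraries of Male2 it was −0.49 (edgeR adjusted p 0.149), and without the High library of Female2, the highest of High, it was −0.81 (edgeR adjusted p 0.0071).

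Bnip3 and Bnip3l (also called Nix) encode related BH3-like proteins of the outer mitochondrial membrane. Bnip3 is known as a target of hypoxia-inducible factor, and Bnip3l for the clearance of mitochondria from maturing red cells and keratinocytes. Bnip3 (chromosome 7, 138890836 to 138909519, minus strand) was at 13.8, 12.6, 10.7 and 12.9 CPM in Low (Female1, Female2, Male1, Male2) and at 19.0, 15.2, 14.0 and 6.02 in High. High was thus above Low in 3 animals, by 0.27 to 0.46 log2 CPM, and below it in Male2, by 1.09. Over all 8 libraries the log2 fold change was 0.07 (SE 0.26, 95% interval −0.50 to 0.65, edgeR adjusted p 0.846), and without both libraries of Male2 it was 0.43 (edgeR adjusted p 0.0821). The directions in single animals are those after TMM scaling, and with total counts only the log2 fold change was −0.44 (edgeR adjusted p 0.265). The Male2 High library had the lowest sums of fibroblast, leukocyte, endothelial and muscle genes. The Female2 High library, where Bnip3 was above Low, had the next lowest and was also below every Low library in all 4 sums (157, 32.0, 14.98 and 23.4 CPM). The part of these genes in the Bnip3 level was not tested.

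Bnip3l (chromosome 14, 66985239 to 67008877, minus strand) likewise set Male2 apart. It was at 58.4, 70.0, 60.5 and 69.7 CPM in Low (Female1, Female2, Male1, Male2) and at 75.4, 101, 77.7 and 59.9 in High, so that High was below Low in Male2 only. Over all 8 libraries it differed by a log2 fold change of 0.27 (SE 0.17, 95% interval −0.10 to 0.64, edgeR adjusted p 0.213), and 0.48 without both libraries of Male2 (edgeR adjusted p 0.0629). It was 0.14 without Female2 High and 0.15 without Female1 Low. With total counts only it was −0.29 (edgeR adjusted p 0.204), and the directions in single animals are those after TMM scaling. The log2 ratio of Bnip3 to Bnip3l counts was −2.37 ± 0.20 in Low and −2.62 ± 0.55 in High (SD, n = 4 each). Their difference of −0.26 had a SD of 0.44 over the 4 animals and did not pass (exact two-sided permutation test, p = 0.457). It was −0.026 without Male2 High, −0.16 without Female1 Low and −0.47 without Female1 High.

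The counts of both genes are uncertain because other annotated genes share their sequence. In GENCODE M21 transcripts 47.2% of the stretches of 50 bases in Bnip3 occur in transcripts of other genes, chiefly AC160336.1 with 33.9%, which had 20 to 91 counts where Bnip3 had 117 to 493. Gm6532, with 10.8%, had 38 to 105 counts and Gm9419, with 1.6%, had 3 to 13, while Gm16439 had 0. Gm45507, with 15.9%, is an antisense gene at the Bnip3 locus itself and had 0 counts. For Bnip3l the share was 20.8%, all of it with the pseudogene Bnip3l-ps. That pseudogene was counted at 737 to 1105 in Low and 701 to 1108 in High, against 1165 to 2547 for Bnip3l. How the counting treated reads that fit both is not given in the sources used here, and so part of the Bnip3l signal may sit in the pseudogene. Sqstm1 shared 15.5% and each of the other 7 receptors at most 2.7%.

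**Figure D2:**
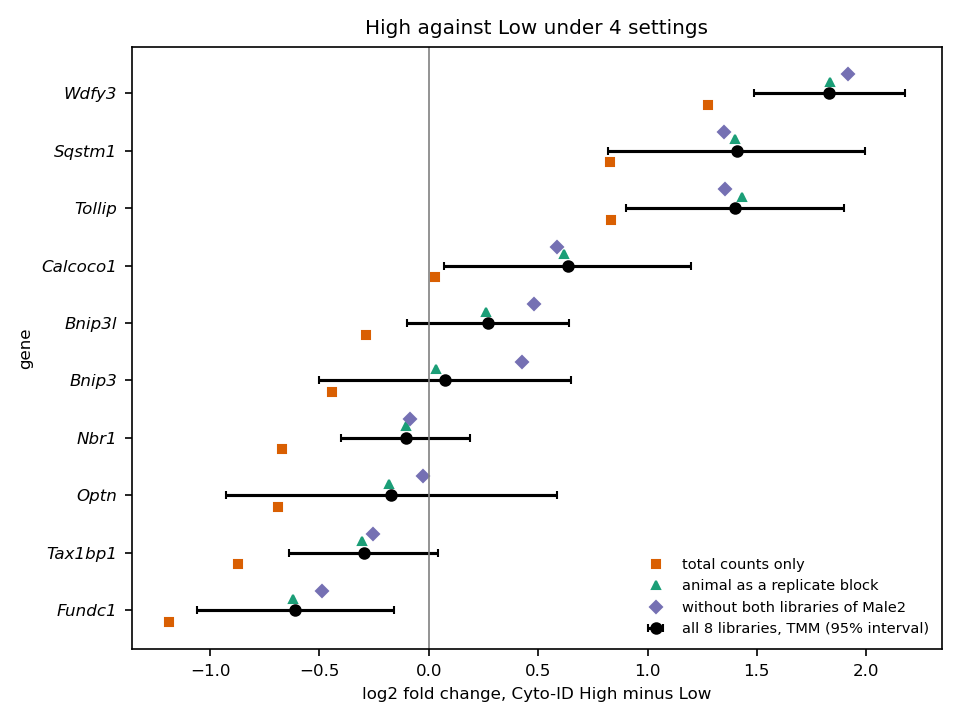
Log2 fold change of each receptor, Cyto-ID High minus Low, on the horizontal axis. Black points and bars are the fit over 8 libraries with its 95% interval, and coloured symbols are 3 alternatives. Wdfy3, Sqstm1 and Tollip stay above 0 in all 4 fits, while scaling by total counts moves each gene by about the shift of all genes and takes Bnip3 and Bnip3l below 0.

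Levels of different receptors can be compared only per transcript length. Counts were therefore divided by exonic length and expressed as TPM, a length-corrected share of the library, which carry no TMM scaling and are used here only for the order of genes within a library or fraction and for shares within a library. In Cyto-ID Low the order was Sqstm1 at 197 ± 46 TPM, Tollip at 83.1 ± 19.3, Tax1bp1 at 73.4 ± 3.6, Bnip3l at 43.2 ± 5.9, Nbr1 at 42.6 ± 5.2, Fundc1 at 23.2 ± 4.8, Bnip3 at 14.2 ± 1.9, Calcoco1 at 12.3 ± 3.4, Wdfy3 at 6.46 ± 1.09 and Optn at 1.01 ± 0.34 (SD, n = 4). Neighbours whose ranges overlapped, and which are not ordered beyond their spread, were Tollip and Tax1bp1, Bnip3l and Nbr1, and Bnip3 and Calcoco1. Sqstm1 was above all others in every library. With the longest transcript as the length, these 3 pairs changed places.

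In Cyto-ID High Sqstm1 was again first at 361 ± 77 TPM, followed by Tollip at 153 ± 12, Tax1bp1 at 41.5 ± 4.5, Bnip3l at 36.9 ± 9.7, Nbr1 at 27.6 ± 3.3, Wdfy3 at 16.0 ± 2.6, Calcoco1 at 13.0 ± 2.8, Bnip3 at 11.1 ± 5.1, Fundc1 at 10.6 ± 2.8 and Optn at 0.635 ± 0.273 (SD, n = 4). Here Tollip lay clear of Tax1bp1, with ranges of 140 to 167 and 38.1 to 47.9 TPM. The ranges of neighbours from Tax1bp1 to Nbr1 overlapped, as did those from Wdfy3 to Fundc1. By mean level Wdfy3 stood at place 9 in Low and 6 in High, and Fundc1 at place 6 in Low and 9 in High. With the longest transcript as the length Wdfy3 stood at place 7 in High.

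As a share of the summed TPM of the 10 receptors, which no scaling between libraries touches, Sqstm1 made up 39.3% ± 5.6 in Low and 53.3% ± 6.4 in High (SD, n = 4 each), with ranges of 31.8 to 44.7% and 47.9 to 61.0%. Tollip went from 16.6% ± 3.0 to 22.9% ± 1.8 and Wdfy3 from 1.31% ± 0.26 to 2.42% ± 0.58. Tax1bp1 went from 14.9% ± 1.8 to 6.25% ± 1.15, Nbr1 from 8.71% ± 1.87 to 4.17% ± 0.85 and Fundc1 from 4.75% ± 1.34 to 1.61% ± 0.54. Bnip3 went from 2.88% ± 0.45 to 1.69% ± 0.80 and Optn from 0.201% ± 0.058 to 0.0957% ± 0.0413. For these 8 genes the ranges of the fractions did not overlap, while for Calcoco1 and Bnip3l they did. In TMM-scaled CPM the fractions did overlap for Nbr1, Fundc1, Bnip3 and Optn. Such shares were not computed for other genes, so that the count has no background and is no result about the receptors. Shares sum to a fixed total, so that a larger share of Sqstm1 lowers the others.

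**Figure D3:**
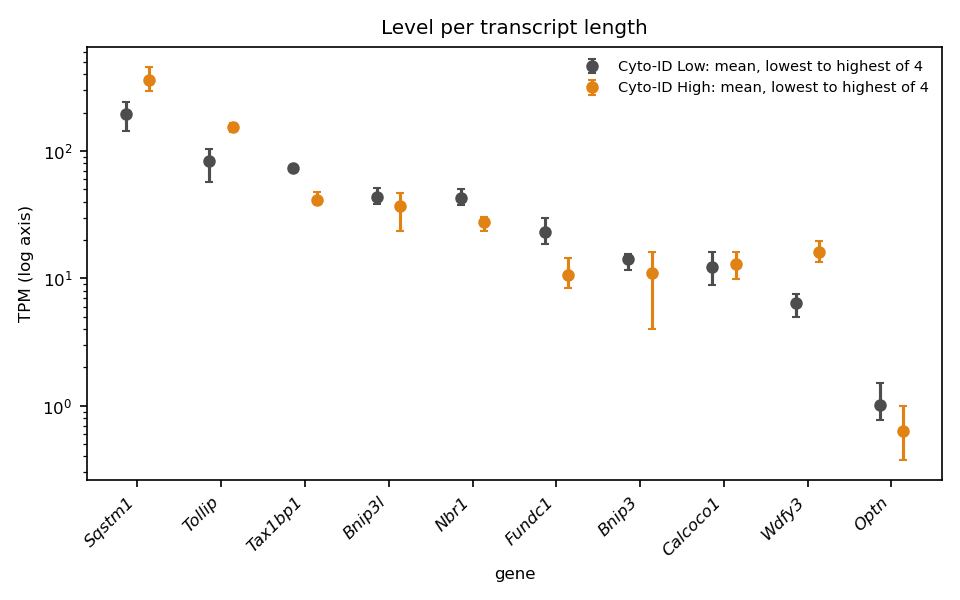
Level per transcript length of each receptor in TPM on a log axis, with points for the mean and bars for the lowest and highest of 4 libraries in each fraction. Sqstm1 is the highest in both fractions (197 and 361 TPM) and Optn the lowest (1.01 and 0.635 TPM).

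Of 18 other receptors of selective autophagy 17 were tested, of which 3 were higher, 3 lower and 11 did not pass, with a median log2 fold change of −0.05. With 1 library left out the median ran from −0.22 (without Female2 High) to 0.056 (without Female1 High), and it was −0.18 without Male2 High, −0.13 without Female1 Low and 0.03 without Female2 Low. The share that passed was 35.3%, beside 48.7% of all genes. In the fit with a replicate block for each animal 4 were higher and 4 lower. Retreg3, a receptor of the endoplasmic reticulum, was higher by 1.05 (SE 0.13, edgeR adjusted p 0.000161). Stbd1, which binds glycogen, fell by 2.64 in log2 units (SE 0.24, edgeR adjusted p 2.53e-05), from 9.12 to 1.44 CPM. Nipsnap1, a mitochondrial protein that recruits receptors to damaged mitochondria, fell by 1.16 (SE 0.17, edgeR adjusted p 0.000395). Calcoco2 had 0 counts in every library.

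The ubiquitin route of mitophagy starts with the kinase Pink1, which marks damaged mitochondria for Optn, Sqstm1 and other receptors. Of 17 genes of this route 3 were higher, 2 lower and 12 did not pass, and the median was −0.15. The share that passed was 29.4%, beside 48.7% of all genes. The number lower was 4 in the fit with a replicate block for each animal, and 4 without the Low library of Female1. The median ran from −0.15 (without Male2 Low) to −0.029 (without Female1 High) with 1 library left out. Pink1 averaged 43.4 CPM in Low against 32.0 in High, and its log2 fold change was −0.44 (SE 0.19, edgeR adjusted p 0.077). Usp15, a deubiquitinase that counters mitophagy, rose by 0.90 (SE 0.16, edgeR adjusted p 0.00117), and Rhot2, a GTPase of mitochondrial transport, rose by 0.86 (SE 0.16, edgeR adjusted p 0.00155). Gm20683, on the same strand, covers 29.4% of the exonic length of Rhot2 and had at most 3 counts. Pptc7, a mitochondrial phosphatase that restrains Bnip3 and Bnip3l proteins, fell by 0.99 (SE 0.16, edgeR adjusted p 0.000703), and exons of Rad9b, which had at most 95 counts, cover 21.2% of it on the other strand.

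Genes of mitochondrial content were measured beside the mitophagy receptors. Of 18 genes 4 were higher, 3 lower and 11 did not pass, with a median of 0.15, so that 38.9% passed beside 48.7% of all genes. Cox5a, a subunit of cytochrome c oxidase, rose by 0.57 (SE 0.12, edgeR adjusted p 0.00375), with 12.8% of its exonic length overlapped by Gm26631 on the other strand. Tfam, which packages mitochondrial DNA, fell by 0.96 (SE 0.15, edgeR adjusted p 0.000646), and the outer membrane channel Vdac3 fell by 0.61 (SE 0.14, edgeR adjusted p 0.00501). Without the High library of Male2 the count of higher genes was 2 and that of lower genes 3. The median ran from 0.079 without that library to 0.22 without Male1 High.

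Kinases that phosphorylate the receptors and ubiquitin factors that bind them were taken as the next list. Of 20 genes 7 were higher, 2 lower and 11 did not pass, with a median of 0.37, so that 45% passed, near the 48.7% of all genes. The number lower was 4 in the fit with a replicate block for each animal, and 1 without the High library of Female1, Female2 or Male1 or the Low library of Female2 or Male1. The median ran from 0.23 without Male2 High to 0.44 without Male1 High. Tbk1, the kinase of Optn and Sqstm1, averaged 41.1 CPM in Low against 40.4 in High (log2 fold change −0.03, SE 0.13, edgeR adjusted p 0.898). Tom1, an endosomal partner of Tollip, rose by 2.56 (SE 0.29, edgeR adjusted p 7.52e-05), from 4.60 to 27.3 CPM. Csnk2b, the regulatory subunit of casein kinase 2, rose by 1.73 (SE 0.21, edgeR adjusted p 0.000133), and Traf6, a ubiquitin ligase that binds p62, rose by 1.13 (SE 0.15, edgeR adjusted p 0.000175). Keap1, the Nrf2 inhibitor that p62 captures, fell by 0.51 (SE 0.18, edgeR adjusted p 0.0353), with 10.9% of its exonic length overlapped by Gm16754 on the other strand.

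Targets of the factors known to act on receptor promoters were examined last. Of 18 hypoxia targets other than Bnip3, 10 were higher, 2 lower and 6 did not pass, with a median of 0.67. The share that passed was 66.7%, beside 48.7% of all genes. The 2 lower targets, named after their values were seen, were Car9 (−1.21), a carbonic anhydrase, and P4ha1 (−0.62), a collagen prolyl hydroxylase subunit. Only 1 was lower without the Low library of Female1 or Male1 or the High library of Female1, Female2 or Male2. Higd1a, a protein of the inner mitochondrial membrane, rose by 2.07 (SE 0.14, edgeR adjusted p 1.30e-05), with 22.5% of its exonic length overlapped by Gm47112 on the other strand. Also higher were the glycolytic regulator Pfkfb4 by 2.10 (SE 0.15, edgeR adjusted p 1.39e-05) and Vegfa, a growth factor of blood vessels, by 1.27 (SE 0.15, edgeR adjusted p 0.00011). Of 18 Nrf2 targets 9 were higher, 4 lower and 5 did not pass, with a median of 0.84, and 72.2% passed, beside 48.7% of all genes. Srxn1, which repairs peroxiredoxins, rose by 2.25 (SE 0.19, edgeR adjusted p 1.83e-05), while Taldo1, of the pentose phosphate pathway, rose by 1.92 (SE 0.18, edgeR adjusted p 3.15e-05) and Blvrb, a biliverdin reductase, by 1.68 (SE 0.17, edgeR adjusted p 3.86e-05). The 4 lower targets, named after their values were seen, were Gsr (−1.83), which reduces glutathione, Gclm (−1.43) and Gclc (−0.77), which encode both subunits of the enzyme that starts glutathione synthesis, and the ferritin chain Ftl1 (−0.82), which Gm10252 overlaps on the other strand over 26.5% of its exonic length.

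Among the transcripts of the factors themselves, Foxo3, a forkhead factor, rose by 0.95 (SE 0.17, edgeR adjusted p 0.00142), and Hif1a (−0.36, SE 0.18), Nfe2l2, which encodes Nrf2 (0.39, SE 0.19), and Tfeb (−0.30, SE 0.19) did not pass, with edgeR adjusted p of 0.143, 0.125 and 0.227. With total counts only the medians of the kinases and partners and of the mitochondrial genes turned to −0.21 and −0.44. The other receptors then stood at −0.63 (2 higher, 11 lower), the genes of the Pink1 route at −0.70 (1 and 13), the hypoxia targets at 0.10 (7 and 6) and the Nrf2 targets at 0.25 (9 and 8), while 4 and 8 kinases and partners and 0 and 12 mitochondrial genes were called.

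**Figure D4:**
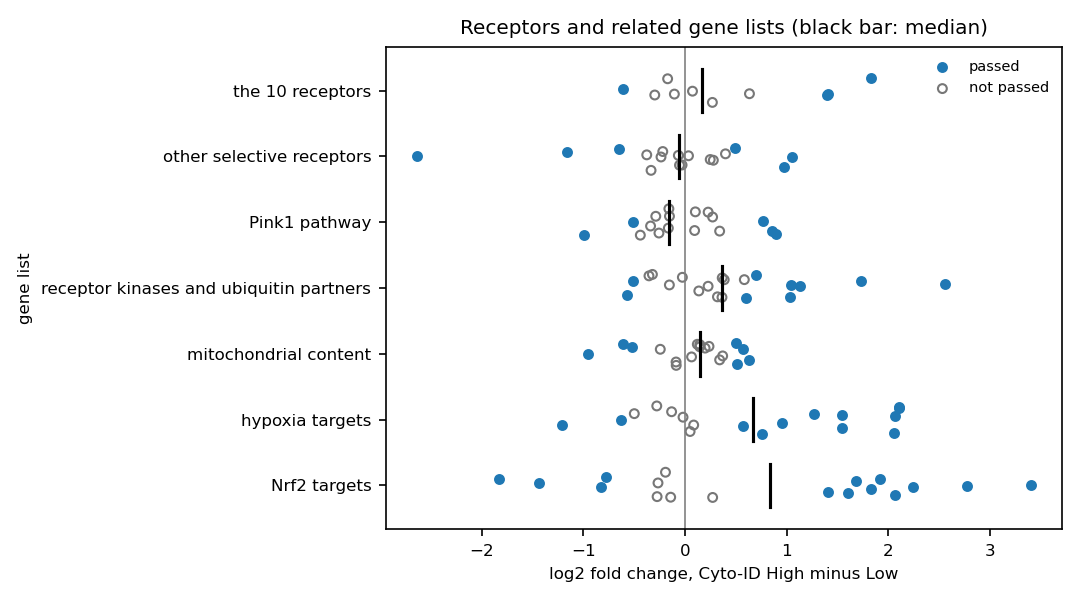
Log2 fold change of each tested gene of the receptors and of 6 related lists, Cyto-ID High minus Low, on the horizontal axis. Filled points passed the test, open points did not, and black bars are medians. The median of the receptors is 0.17 and those of the hypoxia and Nrf2 targets are 0.67 and 0.84.

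For each receptor the genes with the most similar High minus Low differences over the 4 animals were sought among 9998 genes with a mean of at least 5 CPM. Wdfy3 was nearest to Vps13d, with a root mean square distance of 0.05 log2 CPM, and to Rnf213 (0.12). Sqstm1 was nearest to Hpcal1 and Scamp2 (0.10 each), Tollip to Ehd4 (0.07) and Dusp16 (0.12), and Fundc1 to Mplkip and Tceal9 (0.05 each). Calcoco1 was nearest to Fam50a and Smpd2 (0.03 each), Tax1bp1 to Rpl36a-ps1 and Ddx21 (0.03 each), and Nbr1 to Polr3b and Pinx1 (0.04 each). Optn was nearest to Peak1 (0.11) and Nbeal1 (0.12), and Bnip3l to Prorsd1 and Tmem60 (0.08 each). Bnip3 had the most distant neighbours of the 10, Plat (0.19) and Trp53inp1 (0.24).

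Male and female animals were compared for the size of the difference between fractions. For no receptor did a dependence of the difference on sex pass the test (interaction of sex and fraction in edgeR, 0 of 10 with an adjusted or an unadjusted p under 0.05), beside 0 of 17344 genes adjusted and 0.11% unadjusted. That 0.11% is far under the share chance gives at this threshold, so that this test, which did not use the animals, was conservative. With each animal as a replicate block it was again 0 of 10, adjusted or unadjusted. With 2 animals per sex the standard errors of the interaction were 0.29 (Nbr1) to 0.74 (Optn) on the log2 scale, so that only large differences between the sexes could have been detected.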

How the data were processed

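A table of unnormalised counts, with gene symbols as rows and 8 libraries as columns, was deposited. Its unit follows from whole numbers and unequal totals. STAR 2.7.3, DESeq2 and GRCm38 are named in the submitters' processing notes without roles. Which tool counted, on which annotation and strand and after which filters is not given in the sources used here.

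Columns were matched to samples by animal and fraction, which the titles call Negative (Low) and Positive (High). Same-named libraries were taken as pairs of 1 animal, since the protocol sorts 1 suspension into both fractions. The pairs entered the differences per animal, the paired permutation tests and the fit with a replicate block for each animal. The main test had sex as its only covariate and did not use the pairs. Deviations of log2 CPM from each fraction's mean, checked across genes, correlated at 0.43, 0.32, −0.016 and 0.28 within Female1, Female2, Male1 and Male2, and at −0.37 to 0.35 between animals (0.35 for Female1 Low with Male1 High). The pairing therefore rests on the names.

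Counts were tested in R 4.3.3 with edgeR 4.0.16 (filterByExpr, TMM, glmQLFit and glmQLFTest, sex as covariate), with Benjamini-Hochberg adjustment over all 17344 genes. Standard errors were derived from the F statistic. Log2 CPM used a prior count of 2, and ratios a pseudocount of 0.5. Exonic lengths and overlaps came from GENCODE M21, which held 53388 of the symbols. Alternatives were other scalings and filters, DESeq2 1.42.0, voom in limma 3.58.1, no covariate, a replicate block for each animal, and left-out libraries.

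The fit was tested on simulated data. Members and lists were chosen with earlier results of these data known, and the ratio tests were added after the data were seen. From each list the 3 genes with the smallest adjusted p among those that passed were named, with genes fixed for their role. A gene of the Pink1 route is not reported here and was left out of its list. Likeness used the 2 genes nearest to each receptor.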

Additional observations from a re-analysis of the deposited data

Results flagged for a closer look

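Dixon's test was applied to the highest and lowest of the 4 libraries in 36 groups (10 receptors and 8 marker lists in each fraction), of which 5 had a library far from the others. Chance gives about 1 in 20 such groups. Optn in Cyto-ID Low was at 2.22 CPM in Female1 and at 1.16 to 1.33 in the others, on 72 counts against 38 to 44. Tollip in Cyto-ID High was at 557 CPM in Male2 and at 385 to 411 in the others. Wdfy3 in Cyto-ID Low was at 31.0 CPM in Male1 and at 40.1 to 41.7 in the others. The 11 gastric genes summed to 19.1 CPM in Cyto-ID Low and 116 CPM in Cyto-ID High in Female2, and to 0.392 to 0.772 and 0.801 to 1.44 in the other animals. In each fraction Female2 also had the most Fundc1, Bnip3l and Nbr1 of the 4 animals, and the part of the gastric genes in this was not tested.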

How the results depend on the processing

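Sqstm1, Tollip and Wdfy3 kept their direction and passed in all 17 alternatives, with log2 fold changes of 0.83 to 1.58, 0.83 to 1.61 and 1.28 to 1.92. The number of receptors that passed was 6 with total counts only (3 higher, 3 lower) and 6 with at least 10 counts in every library (4 higher, 2 lower). The number lower was 0 to 1 when each library was left out and 0 without both libraries of Male2, because the call of Fundc1 was lost. With the animal as a replicate block 5 of 10 passed and 9336 of all genes, and among the receptors only the call of Calcoco1 changed (0.62, edgeR adjusted p 0.00202, in a range of 0.00202 to 0.912 over its alternatives). Calcoco1 passed in 8 of 17 alternatives. Directions that turned belonged to genes that did not pass: with total counts only Bnip3 was at −0.44 and Bnip3l at −0.29, and with each single library left out Bnip3 ranged from −0.11 to 0.32 and Optn from −0.37 to 0.035. Bnip3 was at 0.43 without both libraries of Male2. Total counts gave 20.5% of all called genes as higher in place of 48.0%. The differences in log2 ratio of Sqstm1 to Nbr1 and of Calcoco1 to Tax1bp1 were 1.28 to 1.68 and 0.78 to 1.04, and that of Bnip3 to Bnip3l −0.47 to −0.026, when each library was left out. Optn had the fewest counts of the 10, 18 to 72, and the largest standard error, 0.34.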
